A study of Danio rerio with 6 samples.

Results

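The transcription factor families that pattern the vertebrate embryo (Hox, Sox, Pax, Dlx, Tbx, Nkx, Fox, Lhx, sine oculis homeobox, Pou, Gata, Irx, Otx, Neurod and Neurog) were examined in whole zebrafish embryos with a mutation of *vhl*. A member was any non-control probe of a gene whose symbol starts with a prefix of these families. This gave 52 probes of 52 genes among the 41031 probes of the array and the 3121 genes with a symbol, from 12 of the 15 families. RefSeq named 40 of them through the accession of the probe. A further 4 (*foxg1a*, *foxq2*, *hoxd13a* and *six3b*) were named by the portion of the study's full probe table at hand, which is ordered by probe name. These 44 were named without regard to their values. The other 8 took their symbol only from a list of changed genes, which the study drew up from these same arrays, so they are described apart and their values support no count. RefSeq lists 279 zebrafish genes with these prefixes, so most of these genes were not analysed here, and the Irx, Neurod and Pou families had no named probe.

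*vhl* encodes the von Hippel-Lindau protein, which marks the α subunits of Hypoxia Inducible Factor (HIF) for degradation, so that HIF target genes are active in the mutant without low oxygen. The 3 *vhl* mutant samples (replicates 1, 3 and 4) were embryos homozygous for the hu2117 allele. The other 3 samples (replicates 2, 3 and 4) were labelled wild-type, and the study's text describes no genotyping of them. All came from the TL/LWT mix strain, were taken at 4 days post fertilisation (dpf) and were pools of 30 embryos. The methods of the study describe the mutant line as crossed into the hypoxia reporter Tg(phd3::EGFP)i144, and the labels do not say whether the wild-type embryos carried it. RNA of each pool was hybridised to a one-colour Agilent array. Between 65.66% and 71.1% of probes were well above background on each array, and 0 probes were named *vhl*, so the mutated gene itself gave no check of the labels. Of the 2 slides, 0 held both groups. In every value below, the genotype and the slide, with any step done slide by slide, therefore cannot be told apart. As the RNA is that of whole embryos, fewer cells of a type and less RNA per cell cannot be told apart either.

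These families hold DNA-binding proteins that assign identity to cells by position and lineage. Hox genes lie in clusters, and their order along the chromosome follows the order of their expression along the body axis. Pax, sine oculis, Otx and Lhx proteins act in eye, brain and ear, SoxB and Neurog proteins in neural progenitors, Dlx proteins in forebrain and jaw, Gata, Nkx and Tbx proteins in heart, gut and ventral neural tube, and Fox proteins in many tissues including ciliated cells and skin. By 4 dpf the body plan is laid down and many of these genes stay on in restricted cell populations.

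Among the 44 members named without regard to their values, 0 passed the stricter limit (adjusted p no higher than 0.01 and at least a 2-fold change), against 3.22% of all probes, 5.04% of the 2557 probes named in the same way and 4.96% of the 24255 probes well above background on every array. At an adjusted p of 0.05 or less with no fold limit, 13 of the 44 (29.55%) were called, against 24.4% of all probes, 30.9% of the probes named in the same way and 36.0% of those well above background. The adjusted p is that of limma with Benjamini-Hochberg adjustment over all probes, here and throughout. Of the 13, 8 rose (*six7*, *foxj1a*, *hoxb3a*, *pax2a*, *hoxb1b*, *hoxc9a*, *hoxd12a* and *nkx2.9*) and 5 fell (*foxi3a*, *sox21b*, *foxg1a*, *six6b* and *six2a*) in the mutant. With RefSeq names alone, 12 of 40 were called, 8 higher and 4 lower, as *foxg1a* was named by the study's full table. Higher calls made up 11.7% of all probes and 11.2% of those named in the same way, and lower calls 12.7% and 19.7%. An unadjusted p under 0.05 (limma) was reached by 21 of the 44 (47.73%), against 37.49% of all probes and 44.86% of those named in the same way. The share of members called at the looser limit was thus close to that of comparable probes, while the share at the stricter limit was 0.

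The balance of higher and lower calls depended on how arrays were scaled to each other. It was 10 higher and 2 lower with the processed signal (75th percentile scaling), 16 higher and 6 lower with normexp values scaled to the 75th percentile and the extreme spots left out, and 1 higher and 9 lower with no normalisation and these spots left out. Calls over all probes moved in the same directions, from 4804 higher and 5225 lower with quantile normalisation. They were 10159 and 3743, 17792 and 4734, and 2899 and 7822 in these fits, in the same order. The number of members called also rested on single arrays. It was 4, 1 and 2 without wild-type replicate 2, 3 and 4, and 17, 3 and 5 without *vhl* mutant replicate 1, 3 and 4. Over all probes the count of 10029 moved in the same directions. It became 6320, 5668 and 5977, and 13043, 6996 and 7222, in the same order. The 13 genes kept the sign of their change in each of the 23 alternative fits, and lost the call in between 4 (*hoxb1b*) and 16 (*nkx2.9*) of them. Fits that changed only the variance model or removed dim probes left the estimated changes as they were, so they could not alter a sign.

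**Figure D1:**
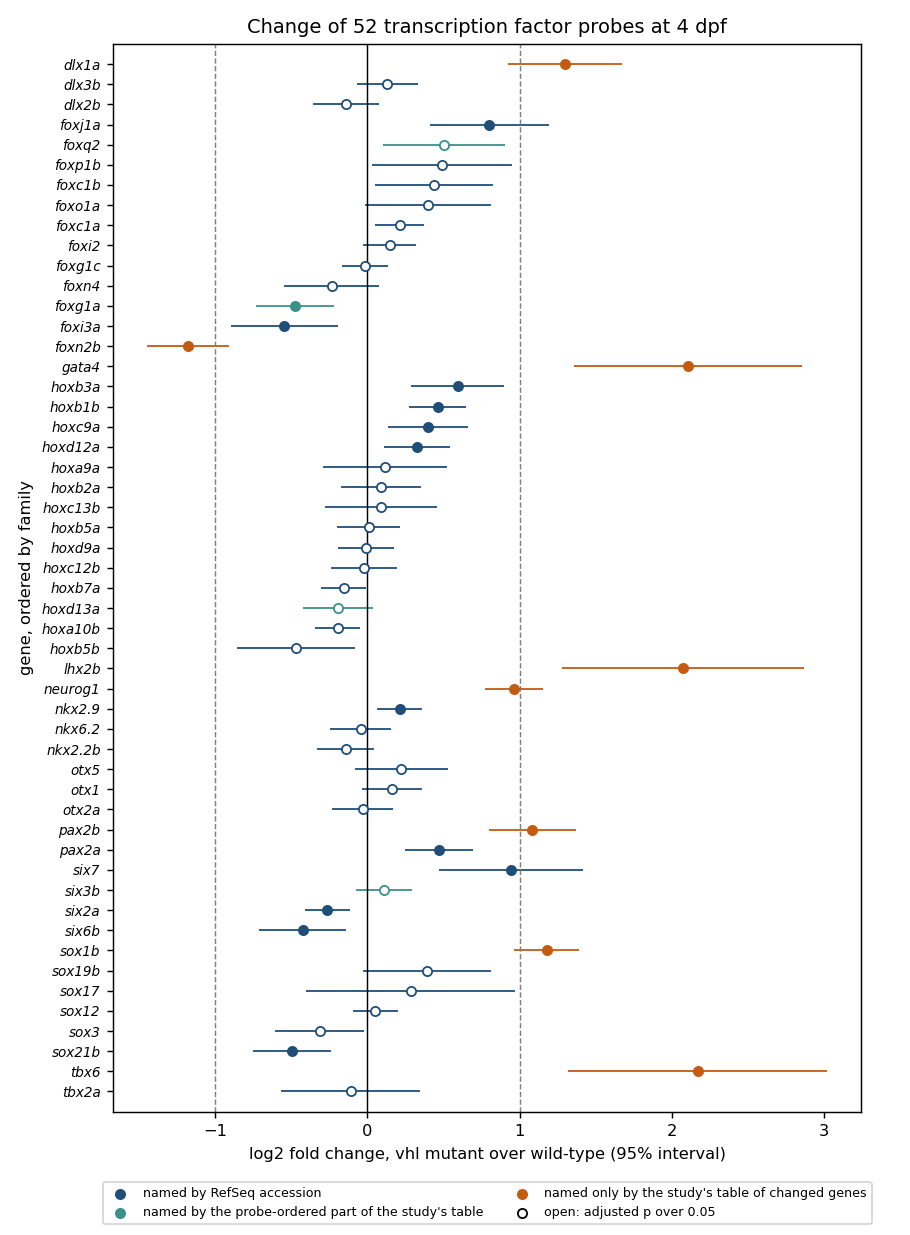
Log2 fold change (*vhl* mutant over wild-type, horizontal axis) of the 52 members grouped by family, with 95% intervals from the limma fit of 3 arrays against 3. Filled points are at an adjusted p of 0.05 or less, colours give the source of the name, and dashed lines mark a 2-fold change. All 44 members named without regard to their values (blue and green) lie between -0.55 and 0.94, and the 8 named by the list of changed genes (orange) lie further out.

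Changes were small. The log2 fold change ran from -0.55 for *foxi3a* to 0.94 for *six7*, 25 members lay above 0 and 19 below, and the median was 0.09 against -0.00017 for all probes. This order did not hold across scalings. The member median lay below that of all probes with the processed signal (0.17 against 0.33), with 75th percentile scaling after normexp (0.45 against 0.72) and with no normalisation (0.29 against 0.56). It also did so when the extreme spots were left out, with 75th percentile scaling (0.19 against 0.28) and with no normalisation (-0.10 against -0.021). Without *vhl* mutant replicate 1 it was 0.021. No member of the 44 (0) reached a 2-fold change, against 5.218% of all probes and 7.755% of probes well above background on every array. The median size of change was 0.22 over the 41 members that were well above background on all 6 arrays, and 0.31 over the 24255 probes of the same kind. For 42 of the 44 members (95.45%) the 95% interval of the change lay wholly inside a 2-fold change either way, against 85.16% of all probes. The exceptions were *six7* and *foxj1a*, whose intervals reached 1.41 and 1.19 on the log2 scale. These shares and intervals are those of the main fit. Among the alternative fits, the change reached 1.325 for *foxp1b*, 1.286 for *foxo1a* and 1.235 for *six7* at the most. It reached 1.074 for *foxi2* and 1.067 for *foxj1a*. The dim *sox17* and *hoxd13a* also passed 2-fold, at 1.291 and -1.233 at the most, and no fold is read from either. Changes past 2-fold thus depended on the processing. The shares describe the members beside the other probes and were not tested.

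**Figure D2:**
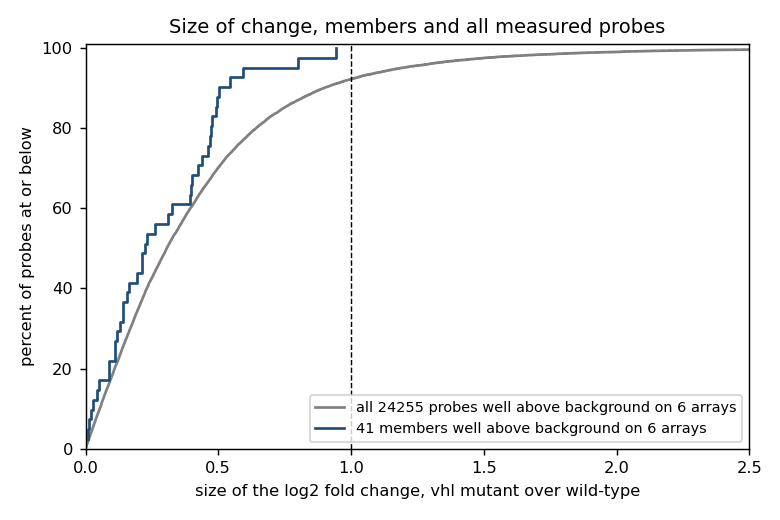
Cumulative percent of probes (vertical axis) by the size of the log2 fold change (horizontal axis), for the 41 members named without regard to their values and all 24255 probes, each well above background on all 6 arrays. The dashed line marks a 2-fold change. The member curve ends at 0.94, while 7.755% of all these probes lie at or beyond the line.

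In the account of single genes, levels are log2 intensities of 1 probe, given for wild-type replicates 2, 3 and 4 and then for *vhl* mutant replicates 1, 3 and 4, and are not comparable between genes. A change is followed by its standard error (SE). *hoxb1b*, which patterns the hindbrain segments, read 9.54, 9.60 and 9.61 in wild-type and 10.10, 9.91 and 10.12 in the mutant arrays. The groups did not overlap, and the change of 0.46 ± 0.08 (SE, n = 3 per group, limma adjusted p = 0.0093) was the only member change of the 44 at an adjusted p under 0.01. It was also the only gene of the 44 still called without each array in turn, with changes from 0.42 to 0.55. *hoxb3a*, active in the posterior hindbrain, read 10.99, 10.88 and 10.79 against 11.58, 11.64 and 11.22, a change of 0.59 ± 0.13 (SE, limma adjusted p = 0.0190). *pax2a*, needed for the midbrain-hindbrain boundary, the ear and the pronephros, read 9.998, 9.818 and 9.731 against 10.365, 10.370 and 10.223, a change of 0.47 ± 0.09 (SE, limma adjusted p = 0.0146). Both genes were higher in every mutant array than in any wild-type array.

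*six7*, a transcription factor of cone photoreceptors in zebrafish, read 11.44, 11.10 and 11.21 against 11.79, 12.27 and 12.51, a change of 0.94 ± 0.19 (SE, limma adjusted p = 0.0174). The mutant arrays spread widely, with replicate 1 lying nearest to wild-type, and without that array the change was 1.14 (limma adjusted p = 0.00241), past the stricter limit. *six6b*, a gene of retinal development, read 9.12, 8.97 and 8.94 against 8.81, 8.51 and 8.42, a change of -0.42 ± 0.12 (SE, limma adjusted p = 0.0452). *foxg1a*, the factor that specifies the telencephalon, read 9.84, 9.67 and 9.71 against 9.46, 9.13 and 9.21, a change of -0.48 ± 0.11 (SE, limma adjusted p = 0.0224). *sox21b*, a SoxB gene of neural progenitors, read 9.43, 9.31 and 9.17 against 8.97, 8.78 and 8.67, a change of -0.50 ± 0.11 (SE, limma adjusted p = 0.0195). For these 3 genes that fell, the highest mutant array was replicate 1 and still lay below every wild-type array. *six3b*, another gene of eye and forebrain, gave 0.11 ± 0.08 (SE, limma adjusted p = 0.347), and *otx5*, expressed in pineal organ and retina, gave 0.22 ± 0.13 (SE, limma adjusted p = 0.254).

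Markers of photoreceptors moved with the genotype beside these eye genes. Of 5 photoreceptor markers, 2 had a probe named without regard to the values and both fell in the mutant, with log2 fold changes of -0.85 for the rod transducin gene *gnat1* (limma adjusted p = 0.0336) and -1.40 for the cone transducin gene *gnat2* (limma adjusted p = 0.00139). *opn1sw1* and *pde6c* were named only by the list of changed genes and are left out here. The mean log2 intensity of *gnat1* and *gnat2* was 13.74 to 13.88 on the wild-type arrays and 12.45 to 13.05 on the mutant arrays. *six7* and these markers therefore differed in opposite directions. Of the 4 lens markers, 3 had a probe, and *cryaa* changed by -1.24 (limma adjusted p = 0.0145), *crygn2* by 4.17 (limma adjusted p = 0.000383) and *cryba1b* by -0.19 (limma adjusted p = 0.138). The mean of the 3 was 12.17 to 12.38 on wild-type and 12.91 to 13.43 on mutant arrays. Of them, only *crygn2* was higher in the mutant. The part of these markers in the values of the eye genes was not tested. As to the other tissues of a whole embryo, the muscle gene *mylpfa* changed by 0.14 (limma adjusted p = 0.230) and the red cell gene *alas2* by 2.88 (limma adjusted p = 0.00268), both well above background on every array, and 0 of the neural, liver, exocrine pancreas and kidney markers listed had a named probe.

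Ciliated and skin cells each had a member among the called genes. *foxj1a*, the master regulator of motile cilia, read 8.76, 8.69 and 8.75 against 9.20, 9.86 and 9.54, a change of 0.80 ± 0.16 (SE, limma adjusted p = 0.0162). The SD was 0.042 over the wild-type arrays and 0.33 over the mutant arrays. *foxi3a*, which drives the formation of skin ionocytes, read 9.79, 9.78 and 9.65 against 9.51, 9.10 and 8.97, a change of -0.55 ± 0.15 (SE, limma adjusted p = 0.0397). Its mutant arrays again spread more than its wild-type arrays (SD of 0.28 against 0.08).

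The remaining called genes had the smallest changes. *hoxc9a*, of the trunk, read 10.07, 10.25 and 10.19 against 10.77, 10.43 and 10.51, a change of 0.40 ± 0.11 (SE, limma adjusted p = 0.0417). This change was 0.027 with the processed signal (limma adjusted p = 0.892) and 0.053 from the deposited series table (limma adjusted p = 0.792). *hoxd12a*, of the posterior body and fin, read 8.80, 8.75 and 8.81 against 8.996, 9.06 and 9.28, a change of 0.33 ± 0.09 (SE, limma adjusted p = 0.0436). *nkx2.9*, of the ventral neural tube, read 7.02, 7.10 and 7.09 against 7.25, 7.28 and 7.33, a change of 0.21 ± 0.06 (SE, limma adjusted p = 0.0499). It was 0.99 with the processed signal (limma adjusted p = 0.0134). The groups did not overlap for any of these genes, as for 43.8% of all probes, and the choice by adjusted p favours such genes. *six2a*, whose mouse counterpart marks nephron progenitors, read 10.91, 10.83 and 10.89 against 10.65, 10.63 and 10.57, a change of -0.26 ± 0.06 (SE, limma adjusted p = 0.0262). The calls of *hoxc9a*, *hoxd12a*, *six2a*, *nkx2.9* and *six6b* were each lost in 13 or more of the 23 alternative fits.

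**Figure D3:**
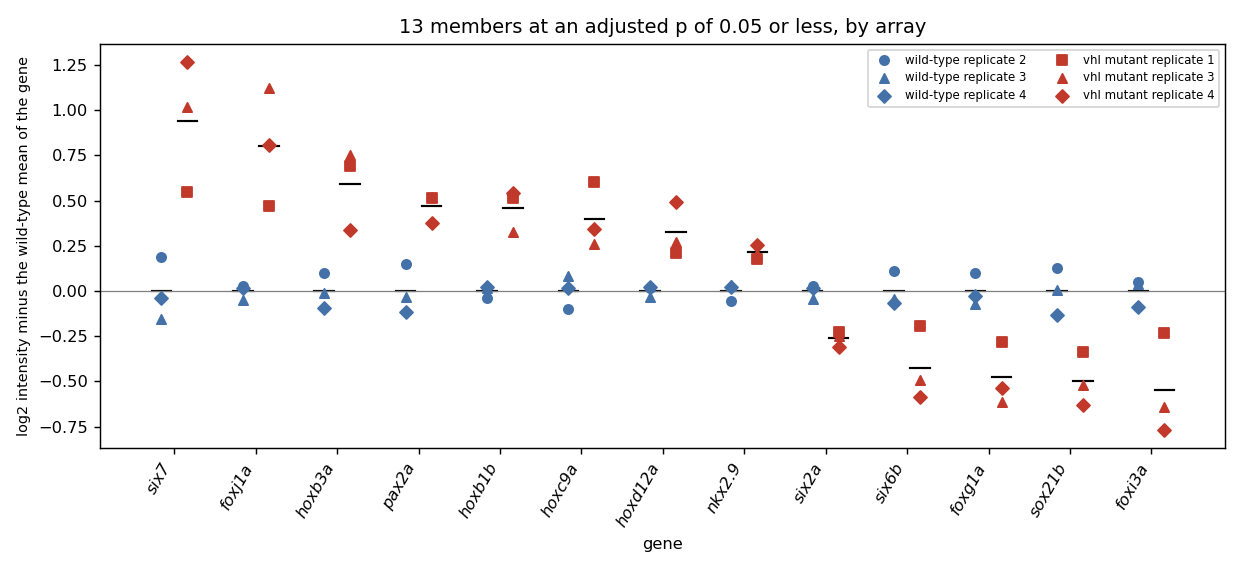
Log2 intensity of each array minus the wild-type mean of the gene (vertical axis), for the 13 members at an adjusted p of 0.05 or less that were named without regard to their values. Each point is 1 array, its shape gives the replicate, and bars are group means (n = 3). In all 13 genes the red mutant points lie wholly above or wholly below the blue wild-type points. The choice by adjusted p favours such genes, and 43.8% of all probes show no overlap. Of the mutant arrays, *vhl* mutant replicate 1 (squares) lies nearest to wild-type in 9 of the 13.

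Samples of the mutant spread more. The SD between arrays was larger in the mutant than in wild-type for 34 of the 44 members (77.27%), against 59.95% of all probes and 67.27% of probes named in the same way, with medians over the members of 0.149 and 0.0781. *vhl* mutant replicate 1 was the mutant array nearest to the wild-type values in 9 of the 13 called members, and in 54.77% of all probes called at the same limit.

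The Hox family had the most members, 14 of 50 genes that RefSeq lists. Of these, 4 rose, 0 fell and 10 did not pass the test, where 24.4% of all probes were called, 11.7% higher and 12.7% lower. The changes ran from -0.47 for *hoxb5b* to 0.59 for *hoxb3a*. Their median of 0.05 had no stable sign. It was -0.045 without *vhl* mutant replicate 1, -0.025 from the deposited series table with quantile normalisation and 0.404 with 75th percentile scaling after normexp. By position along the body axis, 2 of 5 genes of paralogue groups 1 to 5 were called, 1 of 4 of groups 6 to 9 and 1 of 5 of groups 10 to 13, counts too small to read an order from. The hoxba cluster, whose 4 measured genes lie on 1 chromosome, gave 0.59 for *hoxb3a*, 0.09 for *hoxb2a*, 0.01 for *hoxb5a* and -0.16 for *hoxb7a*. Of these, *hoxb3a* passed the test, and differences between neighbours in the cluster were not tested. From the hoxbb cluster, *hoxb1b* rose by 0.46 while *hoxb5b* read 11.19, 11.23 and 11.18 against 11.10, 10.48 and 10.62 (limma adjusted p = 0.0809). The groups of *hoxb5b* did not overlap, but mutant replicate 1 lay close to wild-type.

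**Figure D4:**
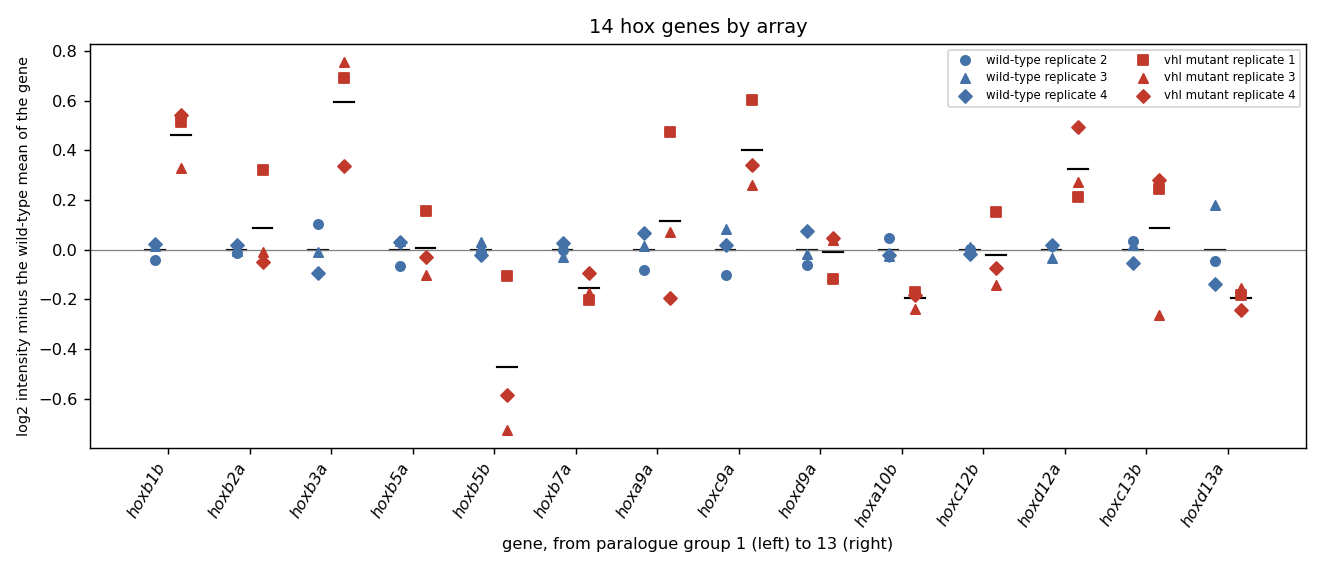
Log2 intensity of each array minus the wild-type mean of the gene (vertical axis) for the 14 hox genes, ordered by paralogue group from 1 on the left to 13 on the right. Each point is 1 array and bars are group means (n = 3). Group means of the mutant lie above 0 for 8 genes and below 0 for 6, between -0.47 and 0.59, a split that was 6 and 8 without *vhl* mutant replicate 1.

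The other families had fewer members with a probe. At the same limit 24.4% of all probes were called, 11.7% higher and 12.7% lower. Of 11 Fox genes, 1 rose and 2 fell, with a range of -0.55 to 0.80. Of 4 sine oculis homeobox genes (*six2a*, *six3b*, *six6b* and *six7*), 1 rose and 2 fell, with a range of -0.42 to 0.94. Of 5 Sox genes 0 rose and 1 fell, and of 3 Nkx genes 1 rose and 0 fell. None (0) of the 3 Otx, the 2 Dlx and the single Tbx member was called. Calls went in both directions in the Fox and sine oculis families, as over all probes, and the counts are too small to compare families.

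Pairs of gene duplicates gave a comparison within each array. The difference between the changes of *hoxb5a* and *hoxb5b* was 0.48, and the exact two-sided permutation test over the 20 regroupings of the arrays gave p = 0.1 (0.15 after Benjamini-Hochberg adjustment over the 3 pairs). For *foxg1a* minus *foxg1c* it was -0.46 (exact permutation p = 0.1, adjusted 0.15), and for *foxc1a* minus *foxc1b* -0.23 (exact permutation p = 0.4, adjusted 0.4). The smallest p that this permutation test can give with 3 arrays against 3 is 0.1, so it could not pass 0.05 for any pair. These genes were chosen after their values were seen, as the duplicates with a probe each.

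The 31 members that did not pass the test had changes between -0.47 and 0.50. Among them, 8 had no overlap between the groups, 4 higher and 4 lower in the mutant, which with the 13 called genes made 21 of 44 (47.73%), against 43.8% of all probes, 49.7% of probes named in the same way and 54.3% of probes well above background on every array. The share of members without overlap was thus within the range of those backgrounds. The largest of these changes on the higher side belonged to *foxq2*, at 0.50 ± 0.17 (SE, limma adjusted p = 0.0738), and *foxp1b*, at 0.49 ± 0.19 (SE, limma adjusted p = 0.113). These genes are named after their values were seen. The smallest changes were those of *hoxb5a*, *hoxd9a*, *foxg1c*, *hoxc12b* and *otx2a*, with 95% intervals between -0.24 and 0.22. Other settings moved them further, to 0.84 for *foxg1c* and to -0.33 for *hoxb5a* and *otx2a* at the most.

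Of the 44 members, 3 were not well above background on every array. *sox17*, the endoderm factor, was well above background on 0 of the wild-type and 1 of the mutant arrays and read 6.51, 6.34 and 6.67 against 6.52, 6.39 and 7.46. No fold is given, since only 1 mutant array measured it, and without mutant replicate 4 the fitted difference was -0.05 (limma adjusted p = 0.822). *hoxd13a*, of the distal fin, was well above background on 1 wild-type and 0 mutant arrays (limma adjusted p = 0.201), so no fold or direction is read from it. Counts of members above and below 0 still include *sox17* and *hoxd13a*, and those of members without overlap, lower in the mutant, include *hoxd13a*. *foxi2* was well above background on 2 of the 3 wild-type arrays, with a change of 0.15 (limma adjusted p = 0.195).

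The 8 members that owe their symbol to the study's list of changed genes were larger in their changes, as that choice requires, and are given as a description. At the stricter limit 7 of the 8 passed, 6 higher and 1 lower (1.67% and 1.55% of all probes), a count fixed by how they were named, from which nothing is read. *gata4*, a zinc finger factor of heart, liver and gut, read 8.21, 8.62 and 8.85 in wild-type and 10.14, 10.58 and 11.28 in the mutant arrays. This gap of 2.11 ± 0.31 (SE, n = 3 per group) on the log2 scale is a 4.3-fold difference, with no overlap. The study's list of quantitative PCR primers holds a pair for *gata4*, a gene of chromosome 20, and they are shown because they define the transcript that its PCR assay amplifies (PCR values were not analysed here).
gata4 forward primer: accgctctacacacaccaca
gata4 reverse primer: tcaggctgttccacacttca
Of the 3 heart markers, *myl7* changed by -0.48 (limma adjusted p = 0.247), and *nppa*, named by the list of changed genes, by 1.34. The choice of *nppa* rests on its change, so no mean of both probes is given, and their part in the level of *gata4* was not tested.

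The symbol *tbx6*, a factor of the paraxial mesoderm, is that of the study's annotation and may be an older name. Its probe read 7.22, 7.15 and 6.99 against 8.55, 9.28 and 10.04, a gap of 2.17 ± 0.35 (SE). *lhx2b*, which acts in eye and forebrain, read 8.01, 7.52 and 8.17 against 9.28, 10.44 and 10.20, a gap of 2.07 ± 0.33 (SE). In all 3 of these genes the mutant arrays ranged over more than 1 log2 unit, with replicate 1 the lowest. The other members of the 8 spread less among the mutant arrays. *dlx1a*, of forebrain interneurons, read 9.18, 9.70 and 9.69 against 10.93, 10.73 and 10.81, a gap of 1.30 ± 0.15 (SE). *sox1b*, a SoxB gene, read 9.214, 8.997 and 9.126 against 10.183, 10.302 and 10.387, a gap of 1.18 ± 0.09 (SE). *neurog1*, a proneural factor, read 8.62, 8.54 and 8.66 against 9.62, 9.64 and 9.45, a gap of 0.96 ± 0.08 (SE) that fell short of 2-fold. *pax2b* is the duplicate of *pax2a*. Its arrays read 7.78, 7.55 and 7.51 against 8.84, 8.76 and 8.50, a gap of 1.08 ± 0.12 (SE). *foxn2b* was the single lower member, at 10.703, 10.577 and 10.779 against 9.585, 9.641 and 9.302, a gap of -1.18 ± 0.11 (SE). Only *sox1b* stayed past the stricter limit without each array in turn. *dlx1a* lost it without each array but wild-type replicate 2 and *vhl* mutant replicate 1, and *lhx2b* without each array but *vhl* mutant replicate 1.

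**Figure D5:**
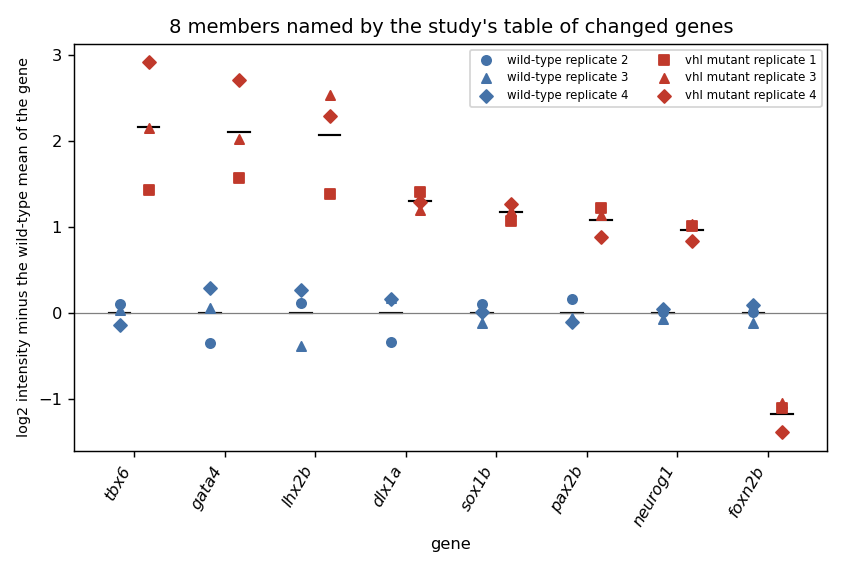
Log2 intensity of each array minus the wild-type mean of the gene (vertical axis) for the 8 members named only by the study's list of changed genes. Each point is 1 array, its shape gives the replicate, and bars are group means (n = 3). No gene shows overlap between the groups, which a choice by these same values favours. The widest spread among the mutant arrays is that of *tbx6*, *gata4* and *lhx2b*.

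Developmental transcription factors outside these families were called at a rate near the background. From a list of 179 such genes, 29 had a probe named without regard to the values, and 5 rose, 3 fell and 21 did not pass at an adjusted p of 0.05, against 24.4% of all probes and 30.9% of probes named in the same way, with a median change of 0.11 on the log2 scale and 0 at the stricter limit. The largest increase was that of *emx3*, a telencephalic gene, at 0.91 ± 0.10 (SE, limma adjusted p = 0.00253). *rx1*, a retinal homeobox gene, rose by 0.86 (limma adjusted p = 0.00815), and *mnx1*, of motor neurons and pancreas, by 0.36 (limma adjusted p = 0.0140). The largest decrease was that of *twist3*, at -0.76 ± 0.06 (SE, limma adjusted p = 0.00126). The hox cofactor gene *meis1a* fell by 0.68 (limma adjusted p = 0.00321) and the T-box gene *eomesa* by 0.66 (limma adjusted p = 0.00713). Also called were *lmx1a*, higher by 0.32 (limma adjusted p = 0.0433), and *msx2b*, higher by 0.31 (limma adjusted p = 0.0210). The genes named from this list were picked after their values were seen.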

How the data were processed

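Gene expression was measured on 6 one-colour arrays (3 per group, groups from the sample titles). Per the file headers, the authors extracted spot values by Agilent Feature Extraction 10.7.3.1, and the submitters' processing notes name limma 3.24.10. The deposited scanner values used here are intensities (median brightness of spot and local background), neither corrected nor normalised. The planned mean brightness was replaced by the median. The deposited series table holds the processed signal, an intensity, rounded to 3 digits, and held 0 columns outside these samples. Deposited spot flags are codes of no unit. As in the methods of the study, normexp correction (offset 50, not stated there), quantile normalisation, averaging by probe, lmFit and eBayes of limma were applied (version 3.58.1, R 4.3.3, no covariate), and p-values were adjusted over 41031 probes. The offset understates changes of dim probes. Outlier-flagged spots (15 to 63 per array) were set missing and 1264 positive and 153 negative control spots removed. The number of arrays limits the precision. Nothing says whether pools came from separate matings, so p-values measure the spread between these samples. Only lmFit and eBayes were run on simulated data, drawn around normalised wild-type means. The correction, normalisation and averaging steps were not tested in this way.

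RefSeq accessions (assembly GRCz12tu, names only) named 1752 probes, the probe-ordered portion of the study's full list (1903 of 1998 neighbouring rows in sorted order) a further 805, and its list of changed genes a further 602. Of 248 probes named by both sources 82 differed in symbol, and RefSeq was kept. Only names were taken from the tables, whose fold changes and p-values were not used. Genes named are those called at the stricter limit, up to 12 in each direction at an adjusted p of 0.05 or less without overlap, and fixed members with a probe, with others marked as chosen after their values were seen. Members and lists were chosen with earlier results of these data known. Alternatives covered signal, background, offset (16 and 0), normalisation, filters, variance model, weights, replicate block and each replicate left out. After the data were seen, scaling alternatives without 2 spots of extreme local background were added. A count of hypoxia motifs in promoters was planned and was not run here.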

Additional observations from a re-analysis of the deposited data

How the results depend on the processing

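Among the 44 members named without regard to their values, the count at an adjusted p of 0.05 (13) was 8 with an offset of 16, 7 with an offset of 0, 8 with a robust trend, 0 with scaling to the 75th percentile after normexp, 0 with no normalisation and 22 with 75th percentile scaling once the extreme spots were left out, and ran from 1 to 17 without single replicates. The count at the stricter limit was 0 or 1 without single replicates, and 13 with an adjusted p of 0.05 and no fold limit. Of all 52 members, 7 passed the stricter limit, all from the 8 whose names came from the list of genes changed on these arrays, so this count describes that choice. It was 0 with 75th percentile scaling, 0 with no normalisation, 3 from the deposited series table, 21 with no fold limit and 1 to 8 without single replicates. Over all probes the stricter count of 1322 became 2622 with the processed signal, 9 with 75th percentile scaling, 3 with no normalisation, 2073 with no normalisation and the extreme spots left out, 10029 with no fold limit and 379 to 2136 without single replicates. The looser count of 10029 became 274 with 75th percentile scaling, 21 with no normalisation, 22526 with 75th percentile scaling and the extreme spots left out, and 5668 to 13043 without single replicates. The median change of the members (0.09) was 0.17 with the processed signal, 0.45 with 75th percentile scaling, 0.29 with no normalisation, 0.032 with array weights, -0.10 with no normalisation and 0.19 with 75th percentile scaling when the extreme spots were left out, and 0.021 to 0.11 without single replicates. These scalings moved the median of all probes by 0.33 (processed signal), 0.72 (75th percentile), 0.56 (no normalisation), -0.02 and 0.28 (the last 2 without the extreme spots). Both extreme spots lay on *vhl* mutant replicate 3. The cause of the other shifts was not tested.

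Deviations of same-numbered arrays of the 2 groups correlated at 0.00568 (replicate 3) and 0.0133 (replicate 4). With 3 arrays per group, these values cannot show whether pools of the same number shared an origin. With a replicate block, 12 of the 44 members were called at 0.05, and the median change of the members was 0.021. At the stricter limit, 0 of the 52 members and 311 of all probes passed. Replicate 1 was only in the mutant group and replicate 2 only in wild-type. In the block fit the change therefore came from replicates 3 and 4 alone, 2 arrays per group. These counts and this median cannot separate an effect of pairing from that of using fewer arrays. No block for slide was possible, as each slide held 1 group. Background limits dim probes, and 41 of the 44 members were well above it on every array.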
